A study of Mus musculus with 12 samples.

Results

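The genes described here are 30 established targets of the transcription factor p53, sorted by what their products do: 7 in arrest and growth control, 12 in apoptosis and autophagy, 4 in DNA repair and 7 in metabolism and stress. The rule that picks them uses their names and no measured value, though the list was drawn up with earlier results of these data known. All 30 were measured, by 330 probesets, out of 23102 genes and 233753 probesets that carry 1 gene symbol. A probeset is a small group of probes that reads about 1 exon, and the value of a gene in a tumour was the median of the log2 intensities of its probesets.

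Gene expression was measured in 12 oral tumours of C57BL/6 × FVB F1 mice, on 1 Affymetrix Mouse Gene ST 2.0 array per tumour, after tamoxifen had been injected into the peritoneum of every mouse. The 6 KR tumours expressed RAS. The 6 KHR tumours expressed RAS and iHPV, and their description speaks of RAS and HPV E6. The sources used here do not give the meaning of the letters KR and KHR, what drives the transgenes and in which cells, or the mice's sex, age and litter. Whether each tumour of a genotype came from a mouse of its own is not stated either. The p-values therefore set each difference only against the spread of these samples, which may be technical in part.

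p53 is a DNA-binding protein that is stabilised by DNA damage and oncogene activity, and it then raises the transcription of genes that stop the cell cycle, start cell death, repair DNA or adjust metabolism. The E6 protein of high-risk papillomaviruses binds the ubiquitin ligase E6AP and directs p53 to degradation. The transcripts of p53 targets are therefore a common readout where this viral gene is present. Most of these genes also answer to other regulators, such as the stress kinases, hypoxia and the p53 relative p63 of squamous epithelium.

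Array medians lay between 5.62 and 5.75 on the log2 scale, and the correlation between any pair of arrays over all probesets was 0.935 to 0.97. Markers of squamous epithelium averaged 12.29 ± 0.06 (KR) and 12.33 ± 0.10 (KHR; mean of 12 genes, SD over 6 tumours), and 0 of 12 passed the test. Skeletal muscle markers ranged from 5.46 to 6.77 in KR and from 5.46 to 7.87 in KHR tumours (mean of 24 genes), with 0 of 24 past the test. Neutrophil markers ranged from 6.15 to 6.97 and from 6.81 to 7.26 (mean of 8 genes, 1 of 8 higher in KHR). The changes of these 8 were uneven: 1.32 for S100a9, 1.08 for S100a8 and 0.83 for Cxcr2, the called gene. They were 0.39 for Retnlg, 0.37 for Csf3r, 0.15 for Ly6g, 0.15 for Elane and 0.02 for Mpo. Macrophage markers ranged from 5.32 to 6.28 and from 5.86 to 6.77 (mean of 10 genes, 1 of 10 higher in KHR). Fibroblast markers ranged from 8.06 to 9.23 and from 8.23 to 9.15 (mean of 10 genes, 1 of 10 lower in KHR). Some markers were dim, such as Myh7 (3.85), Elane (3.89) and Mpo (3.95), below the median of all genes (4.98). All 13 DNA replication genes were higher in KHR tumours, where their mean was 9.74 ± 0.14 against 8.64 ± 0.11 in KR tumours. Xist, the noncoding RNA that coats a silenced X chromosome, was above 8 on 2 of 6 KR and 4 of 6 KHR arrays. The Y chromosome genes Eif2s3y, Kdm5d and Uty went the other way, with changes of -1.94, -1.76 and -1.70, none of them called. Read by these genes, the sexes were unevenly spread over the genotypes, so sex and genotype are partly confounded. In bulk tumours, fewer cells of a type and less RNA per cell cannot be told apart.

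The 30 target genes did not move as a block between the genotypes. Of the 30, 1 gene, Tigar, was higher in KHR tumours and 0 were lower (limma, Benjamini-Hochberg adjusted p under 0.05 over all genes), against 3.74% of all genes called in either direction, 2.71% higher and 1.03% lower. Of the 29 genes that did not pass, 14 had a mean above and 15 a mean below that of KR. The median change, KHR minus KR, was -0.02 on the log2 scale, beside 0.005 over all genes. The median size of a change without regard to sign was 0.21, beside 0.12 over all genes and 0.19 over the genes above the median level. An unadjusted p under 0.05 was reached by 6 of the 30 genes, against 15.9% of all genes. Of the 30 targets, 28 lay above the median level of all genes. Of the 11551 genes above that level, 3002 had an unadjusted p under 0.05, 592 were called higher and 225 lower. The 95% intervals of the 29 changes reached from -1.05 to 0.77 at their extremes, and 14 of them lay within 0.5 of no change.

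**Figure D1:**
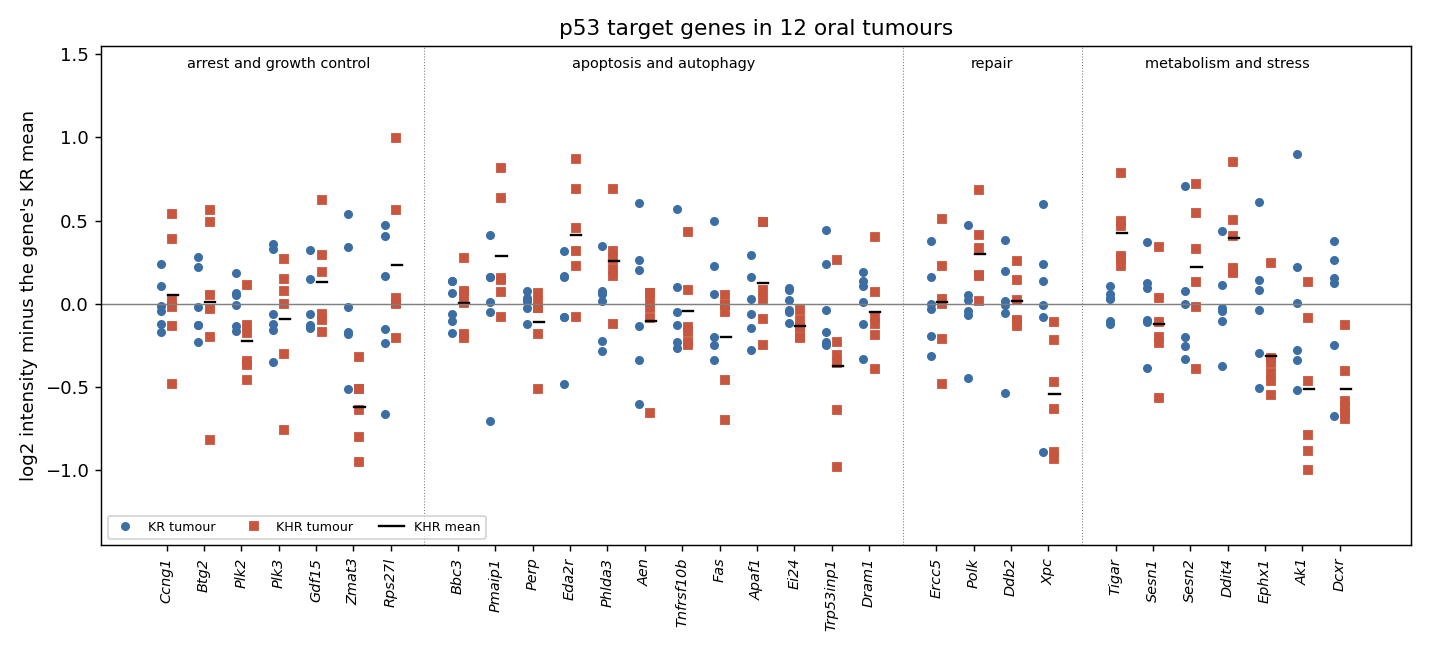
Log2 intensity of each p53 target gene in each tumour, minus the mean of that gene in KR tumours, for 6 KR tumours (circles) and 6 KHR tumours (squares), with the KHR mean as a black bar; genes are ordered by function. Tigar, with every KHR tumour above every KR tumour, is the gene without overlap, and the KHR means of the other genes lie on both sides of 0.

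Averaged by function, the targets stayed within the spread between tumours. The mean of the arrest and growth control genes was 8.53 ± 0.17 in KR and 8.46 ± 0.16 in KHR (SD over n = 6 tumours), a difference of -0.07 ± 0.09 (SE). For the apoptosis and autophagy genes the means were 7.75 ± 0.10 and 7.76 ± 0.10, a difference of 0.01 ± 0.06. The repair genes gave 6.86 ± 0.28 and 6.81 ± 0.20, a difference of -0.05 ± 0.14. The metabolism and stress genes gave 7.09 ± 0.23 and 7.03 ± 0.12, a difference of -0.06 ± 0.11. In each of the 4 classes the ranges of KR and KHR tumours overlapped, and no test was made on these means because the genes were chosen as a list.

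Among the arrest and growth control genes, Zmat3 had the largest difference. Zmat3, which encodes a zinc finger protein that binds RNA and regulates splicing, lay between 7.43 and 8.48 in KR tumours (median 7.84) and between 6.99 and 7.62 in KHR tumours (median 7.36). All 6 KHR tumours were below the KR median and 3 were below every KR tumour, and the groups overlapped. The change was -0.62 ± 0.17 (SE), with a limma adjusted p of 0.0575 that misses the threshold. Its 10 probesets were all lower on average in KHR tumours, with changes from -0.95 to -0.09, and 2 of them passed the test over all probesets, in which 1.02% of probesets were called and 0.301% were called lower. No other probeset of the 30 genes passed. The first of those fell by 0.94 ± 0.14, from 7.60 to 6.65 (adjusted p 0.00688), and the second fell by 0.95 ± 0.15, from 10.40 to 9.44 (adjusted p 0.00942). Probesets of 1 gene share its transcripts and are not replicates, and 5.43% of all genes with at least 8 probesets had every probeset on 1 side. As the mean over its probesets, Zmat3 fell by 0.59 ± 0.10 (limma adjusted p 0.00244). On that scale it lay between 7.75 and 8.24 in KR and between 7.22 and 7.67 in KHR tumours, without overlap. The share of all genes without overlap was not counted on that scale. With 1 tumour left out, the median passed in 1 of 12 fits (-0.72 without KR 4, adjusted p 0.0245) and its adjusted p was at most 0.129 (without KHR 4).

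None of the other 6 genes of this class passed. Ccng1, which encodes cyclin G1, a partner of a phosphatase that acts on Mdm2, was 11.43 ± 0.15 in KR and 11.48 ± 0.37 in KHR (SD over n = 6 tumours). Btg2, an antiproliferative cofactor of mRNA deadenylation, was 8.45 ± 0.21 and 8.46 ± 0.50. Gdf15, a secreted stress cytokine, was 3.82 ± 0.19 and 3.95 ± 0.30, dimmer than the median of all genes (4.98). Those 3 changes were at most 0.13 in size, well inside the spread between tumours. Both Polo-like kinases had KHR means below those of KR. Plk2, a kinase of the centriole cycle and stress response, was 10.05 ± 0.13 and 9.82 ± 0.21, a change of -0.22 ± 0.11 (adjusted p 0.327 with limma), which was -0.061 as the mean over its 15 probesets. Plk3, a stress-activated kinase, was 10.71 ± 0.28 and 10.62 ± 0.38. Rps27l, a ribosomal protein variant that interacts with Mdm2, was 7.31 ± 0.43 and 7.55 ± 0.45, and this difference of 0.23 turned to -0.06 when its 7 probesets were averaged.

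Of the apoptosis and autophagy genes, 0 of 12 passed the limma test, and 1 had an unadjusted p under 0.05. That gene was Eda2r, a receptor of the tumour necrosis factor family that binds ectodysplasin A2. Eda2r lay between 6.59 and 7.39 in KR tumours (median 7.11) and between 6.99 and 7.94 in KHR tumours (median 7.46). The groups overlapped, with 3 KHR tumours above every KR tumour, and the change was 0.41 ± 0.17 (limma p 0.0265, adjusted p 0.228). Of its 10 probesets, 9 had a change above 0. Trp53inp1, a nuclear protein that promotes p53-dependent death and autophagy, had the largest spread over tumours in this class (SD 0.39, n = 12). It lay between 8.75 and 9.44 in KR tumours (median 8.89) and between 8.02 and 9.26 in KHR tumours (median 8.66). In 4 KHR tumours it was below every KR tumour and in KHR 5 it was above 5 of the 6, and the change was -0.37 ± 0.19 (limma adjusted p 0.357).

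The death receptors and the BH3-only genes showed differences no larger than the spread between tumours. Fas, the receptor of Fas ligand, was 5.13 ± 0.32 in KR and 4.93 ± 0.31 in KHR (SD over n = 6 tumours). The brightest of its 11 probesets had a mean level of 5.6, below the median of all probesets (5.62). Tnfrsf10b, the mouse TRAIL receptor, was 7.27 ± 0.31 and 7.22 ± 0.26. Bbc3, which encodes Puma, was 3.92 ± 0.13 and 3.93 ± 0.18 and, like Gdf15, was dimmer than the median of all genes. Pmaip1, which encodes Noxa, was 5.46 ± 0.38 and 5.75 ± 0.35, with 2 KHR tumours above every KR tumour. Puma and Noxa are the BH3-only proteins through which p53 reaches the mitochondrion, and neither transcript was called.

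None of the remaining death and autophagy genes passed. Apaf1, the scaffold of the apoptosome, was 7.18 ± 0.21 in KR and 7.31 ± 0.30 in KHR tumours over 31 probesets, of which 21 had a change above 0. Perp, a membrane protein that p53 and p63 both induce and that desmosomes of squamous epithelium need, was 13.38 ± 0.07 and 13.27 ± 0.21. Phlda3, a repressor of Akt, was 9.68 ± 0.23 and 9.94 ± 0.26. Perp and Phlda3 had changes of -0.11 and 0.25, and the latter was 0.035 as the mean over its 5 probesets. Aen, a nuclease of apoptotic DNA breakdown, was 6.36 ± 0.44 and 6.26 ± 0.28, with KHR 4 apart from its group at 5.71. Its change of -0.10 ± 0.19 was -0.24 as the mean over its 12 probesets, of which 11 had a change below 0, and -0.29 with median polish (limma adjusted p 0.0729). Ei24, a membrane protein of the endoplasmic reticulum needed for autophagy, was 11.06 ± 0.08 and 10.92 ± 0.07. Ei24 had the narrowest spread of the 30 genes (SD 0.10, n = 12): all 6 KHR tumours were below the KR median and 4 were below every KR tumour, yet the change of -0.13 ± 0.07 did not pass (limma adjusted p 0.415). Dram1, a lysosomal membrane protein that promotes autophagy, was 7.52 ± 0.20 and 7.47 ± 0.27.

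The 4 repair genes act in nucleotide excision repair and in synthesis across damaged bases, and 0 of 4 passed the limma test, with 1 at an unadjusted p under 0.05. Xpc, which recognises helix-distorting lesions, lay between 5.18 and 6.67 in KR tumours (median 6.13) and between 5.14 and 5.96 in KHR tumours (median 5.52). All 6 KHR tumours were below the KR median, and the lowest KR tumour, KR 1, was as low as the lowest KHR tumours. The change was -0.54 ± 0.22 (limma p 0.0274, adjusted p 0.231). With 1 tumour left out, Xpc passed in 1 of 12 fits (-0.72 without KR 1, adjusted p 0.043), and the adjusted p was at most 0.398 (without KR 6). The 16 probesets of Xpc did not share a direction: 10 had a change below 0 and 6 above, from -1.0 to 0.63, and as their mean the change was -0.15 (adjusted p 0.48). Ddb2, the damage sensor that acts before Xpc, was 6.47 ± 0.31 and 6.49 ± 0.16 (SD, n = 6). Ercc5, the endonuclease that cuts beside the lesion, was 7.59 ± 0.25 and 7.60 ± 0.34. Polk, a polymerase that bypasses bulky lesions, was 7.32 ± 0.30 and 7.62 ± 0.24, with all 6 KHR tumours above the KR median and a change of 0.30 ± 0.15 (limma adjusted p 0.346), which was 0.17 as the mean over its 19 probesets.

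The metabolism and stress genes held the called target, Tigar, and 0 of the other 6 passed the limma test. Tigar, which encodes a fructose bisphosphatase that slows glycolysis and feeds the pentose phosphate pathway, lay between 5.38 and 5.61 in KR tumours (median 5.54) and between 5.73 and 6.29 in KHR tumours (median 5.88). Every KHR tumour was above every KR tumour, a separation seen for 2.67% of all genes, and Tigar rose by 0.42 ± 0.10 (limma adjusted p 0.0362). Of its 8 probesets, 7 had a change above 0, up to 0.49, and none passed alone. The call was close to the threshold: leaving out any tumour other than KHR 5 or KHR 6 raised the adjusted p above it, to at most 0.0752 (without KR 5), and quantile normalization gave 0.0501. Median polish gave a change of 0.21 (adjusted p 0.0997), and a trended robust variance gave an adjusted p of 0.133. The mean over its probesets gave 0.31 (limma adjusted p 0.00657). Only those above the median level of all probesets gave a mean change of 0.38 (limma adjusted p 0.0191). With the Xist level as a covariate the change was 0.44 and missed the threshold (limma adjusted p 0.0556).

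Ddit4 and Dcxr, of the same class, also had an unadjusted p under 0.05. Ddit4, an inhibitor of mTORC1 that hypoxia and glucocorticoids also induce, lay between 7.67 and 8.48 in KR tumours (median 8.01) and between 8.23 and 8.90 in KHR tumours (median 8.35). All 6 KHR tumours were above the KR median and 2 were above every KR tumour, with a change of 0.39 ± 0.14 (limma p 0.0164, adjusted p 0.175). As the mean over its 5 probesets the change was 0.15. Dcxr, a reductase of dicarbonyls and L-xylulose, lay between 5.25 and 6.30 in KR tumours (median 6.06) and between 5.23 and 5.80 in KHR tumours (median 5.32). All 6 KHR tumours were below the KR median, KR 4 and KR 5 lay within their range, and the change was -0.52 ± 0.17 (limma p 0.00841, adjusted p 0.121). Dcxr passed as the mean over its 10 probesets (-0.48, adjusted p 0.0313) and not as the mean over its 5 brighter ones (-0.45, adjusted p 0.168). With 1 tumour left out it passed in 1 of 12 fits (-0.65 without KR 5, adjusted p 0.0202), and the adjusted p was at most 0.227 (without KR 6). Over the 12 tumours Dcxr was lower where the skeletal muscle markers were higher (r -0.70 with the group means removed, rho -0.71, permutation p 0.00258, adjusted p 0.284 over 330 relations), and with the muscle mean as a covariate its change was -0.35.

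The sestrins and Ephx1 did not pass. Sesn1, a stress sensor that restrains mTORC1, was 8.54 ± 0.26 in KR and 8.42 ± 0.30 in KHR (SD over n = 6 tumours). Sesn2, its paralog, was 7.41 ± 0.38 and 7.63 ± 0.40. Ephx1, the microsomal epoxide hydrolase, was 8.45 ± 0.39 and 8.13 ± 0.28, with KHR 3 apart from its group at 8.69, a change of -0.31 ± 0.18 (limma adjusted p 0.441), and 11 of its 12 probesets had a change below 0.

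Ak1, an adenylate kinase that balances ATP, ADP and AMP, gave opposite signs depending on which of its probesets were read. Its median lay between 5.23 and 6.65 in KR tumours (median 5.61) and between 4.75 and 5.88 in KHR tumours (median 5.12), the widest spread of the 30 genes (SD 0.54, n = 12). The groups overlapped and the change was -0.51 ± 0.25 (limma adjusted p 0.337). Of its 11 probesets, 5 had levels above the median of all probesets (5.62), with KR means from 8.67 to 10.51, and all 5 had a change above 0, from 0.21 to 0.47. The other 6 were dim, with changes from -0.78 to 0.71, and in each tumour the median was the highest of these dim values. As the mean of the 5 brighter probesets, a summary chosen after the data were seen, Ak1 lay between 9.26 and 9.55 in KR and between 9.61 and 10.01 in KHR tumours. These groups did not overlap, and on this scale Ak1 rose by 0.35 ± 0.10 (limma adjusted p 0.0437). Of the genes read on this scale 9.05% were called, and the share of them without overlap was not counted. Median polish over all 11 probesets gave 0.27 (adjusted p 0.0276).

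**Figure D2:**
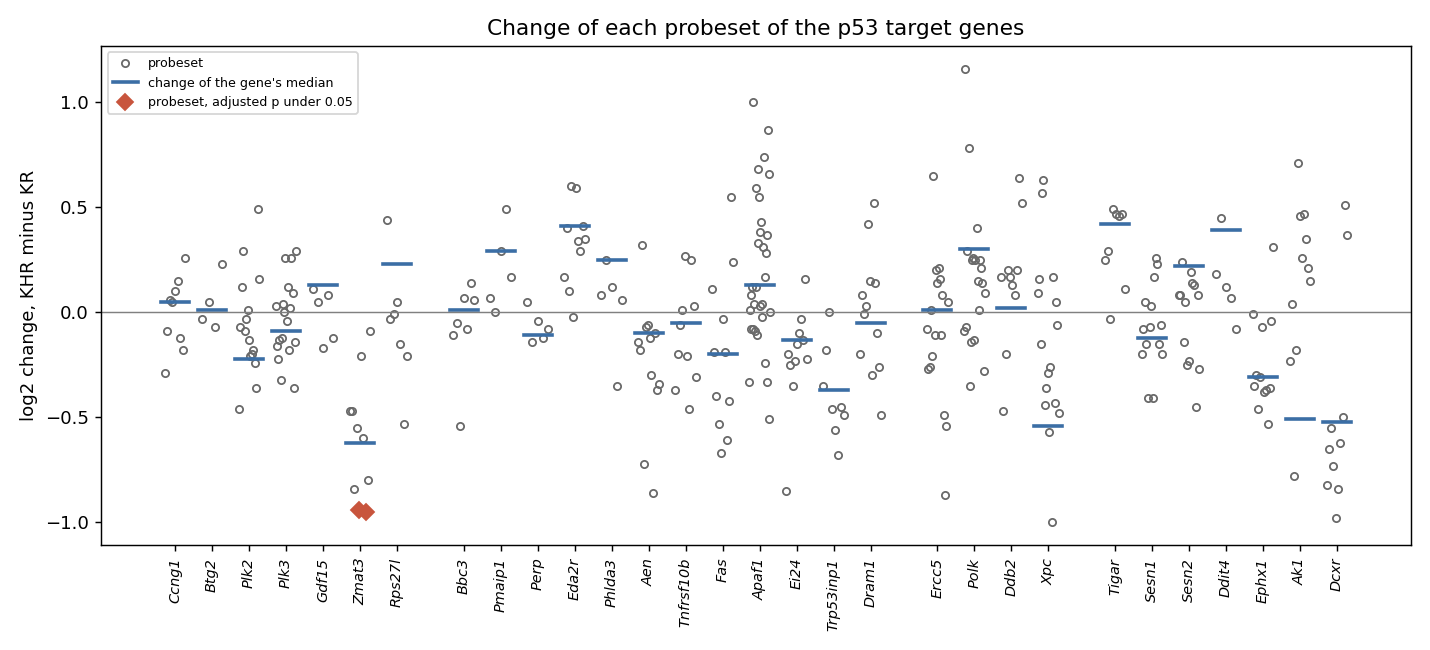
Change of each probeset, KHR minus KR on the log2 scale (open circles; red diamonds passed the limma test over all probesets at an adjusted p under 0.05), with the change of each gene's median as a blue bar; genes are ordered by function. The 10 Zmat3 probesets all lie below 0, those of Xpc and Ak1 lie on both sides, and the bar of Ak1 lies at -0.51 although 8 of its 11 probesets lie above 0.

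Under the different summaries and scalings, the targets that passed were thus Tigar, Zmat3, Dcxr and Ak1. The mean over probesets called Tigar higher and Zmat3 and Dcxr lower, median polish called Ak1 higher and Zmat3 and Dcxr lower, and quantile normalization or subtraction of the array median called Zmat3 lower and no target higher. The share of all genes called was 6.25% with the mean, 5.31% with median polish and 3.68% after quantile normalization, against 3.74% as reported. Under the 12 other settings, 3 of which replace the median, the KHR mean of Zmat3 was below that of KR and the KHR mean of Tigar was above it. Among all genes, 72.4% of calls were higher in KHR as reported, and 64.3% after quantile normalization.

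**Figure D3:**
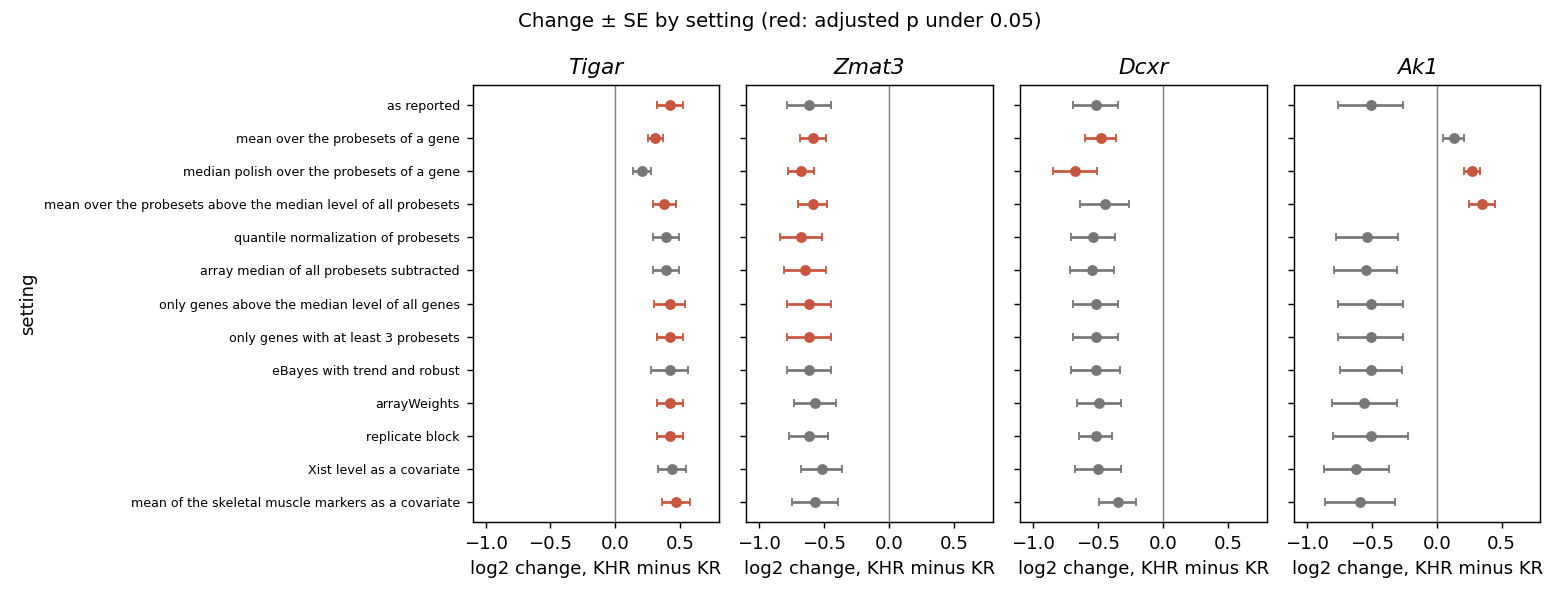
Change, KHR minus KR on the log2 scale, with its SE, of Tigar, Zmat3, Dcxr and Ak1 as reported (top) and under 12 other settings; red points passed the limma test at an adjusted p under 0.05. Tigar lies between 0.21 and 0.47 and Zmat3 between -0.68 and -0.52, whereas Ak1 changes sign with the summary of its probesets.

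Around these targets, 20 further genes of the pathway were measured, and 1 was called higher and 0 lower. The 8 genes of the p53 family and its regulators (Trp63, Trp73, Mdm2, Mdm4, Ppm1d, Ube3a, Rchy1 and Usp7) had 0 calls, also 0 at an unadjusted p under 0.05, with changes from -0.10 to 0.37. Mdm2, the ubiquitin ligase of p53 and itself a target, lay between 8.78 and 9.78 in KR tumours (median 9.22) and between 8.89 and 9.55 in KHR tumours (median 9.33). Cdkn1a, the CDK inhibitor p21, lay between 11.06 and 11.80 (median 11.33) and between 10.82 and 11.79 (median 11.64). In both genes the groups overlapped, with adjusted p of 0.957 and 0.884 by limma. Trp53 and Bax are not analysed here.

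Of the 12 further targets, the called gene was Ckap2, a spindle-associated protein of dividing cells. It lay between 7.41 and 7.99 in KR tumours (median 7.65) and between 8.06 and 8.53 in KHR tumours (median 8.33). The groups did not overlap, and Ckap2 rose by 0.61 ± 0.11 (limma adjusted p 0.00687, at most 0.0197 when any 1 tumour was left out). It moved beside the DNA replication genes, of which all 13 were higher in KHR tumours, and the part of proliferation in this difference was not tested. Abhd4, a lipase of N-acyl phospholipids, lay between 9.09 and 9.76 in KR tumours (median 9.12) and between 8.52 and 9.35 in KHR tumours (median 8.88), with a change of -0.33 ± 0.15 (limma p 0.0419, adjusted p 0.289).

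Whether the targets rise and fall together from tumour to tumour was read from the Pearson correlation of each of the 435 pairs over the 12 tumours, after the mean of each genotype was removed. The targets covaried little. The median r was 0.08, beside 0.00 over all pairs of genes measured and 0.02 over pairs above the median level. It was above 0 for 57.9% of the pairs, against 50.3% and 52.0%. An r beyond 0.7 in size was found for 12 pairs, 2.76%, against 2.24% of all pairs and 3.32% of pairs above the median level. By a permutation test within genotypes, 0 of 435 pairs passed an adjusted p of 0.05, and 33 had an unadjusted p under 0.05. The pairs share genes and arrays, and this unadjusted count was not made over all pairs of genes, so it has no background beside it.

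Sorting by function separated the pairs a little. The median r was 0.14 within the 4 classes and 0.07 between them. It was 0.14 within arrest and growth control, 0.11 within apoptosis and autophagy, and 0.27 within metabolism and stress. For the repair genes it was 0.48 over 6 pairs, all above 0. In KR tumours the repair pairs had a median r of 0.67 (0.58 to 0.73 with any 1 tumour left out), and in KHR tumours 0.30, which ranged from 0.00 without KHR 5 to 0.48 without KHR 2. The arrest and growth control pairs had 0.44 in KR and -0.06 in KHR tumours, the metabolism and stress pairs 0.49 and 0.16, and the apoptosis and autophagy pairs 0.03 and 0.09. The KR value of the arrest class was 0.12 without KR 1, that of the metabolism class was 0.21 without KR 5, and the KHR value of the metabolism class was -0.17 without KHR 2. The differences between genotypes were not tested. Averaging the probesets of each gene in place of their median gave 0.21 for repair, 0.17 for metabolism, 0.18 for apoptosis and 0.15 for arrest. Median polish gave 0.18, 0.14, 0.05 and 0.08 in the same order, and brighter probesets alone gave 0.18, 0.08, 0.20 and 0.03, so the order of the classes changed with the summary.

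**Figure D4:**
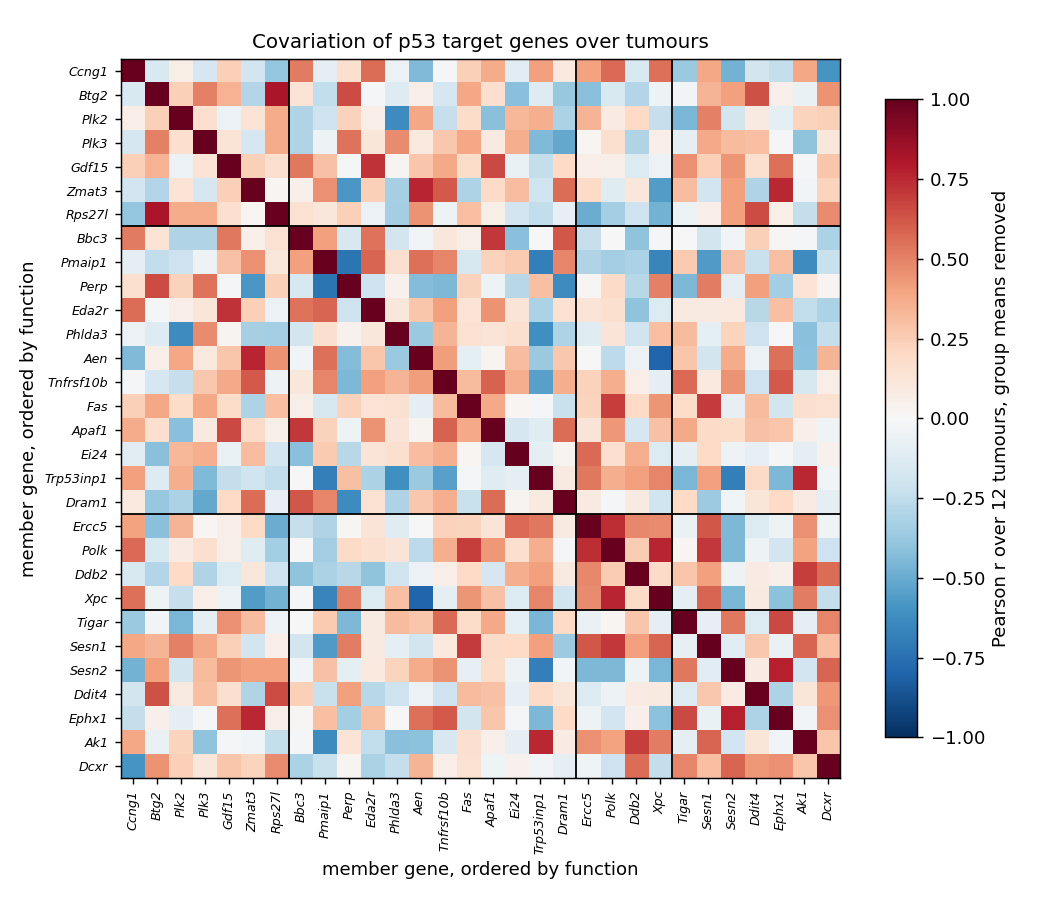
Pearson r of each pair of the 30 target genes over 12 tumours with the genotype means removed (colour, from -1 in blue to 1 in red); black lines part the 4 functional classes. The block of the 4 repair genes is red throughout (6 of 6 pairs above 0), and the other blocks mix both signs.

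The 6 pairs with the largest r were Btg2 with Rps27l, Aen with Xpc, Sesn2 with Ephx1, Polk with Xpc, Zmat3 with Aen and Zmat3 with Ephx1. Btg2 and Rps27l, both of the arrest class, had an r of 0.82 and a rho of 0.85 (permutation p 0.00052, adjusted p 0.226 over 435 pairs). The relation was present in each genotype (0.93 in KR, 0.86 in KHR) and without the 2 most distant tumours (0.83). When the probesets of each gene were averaged the r was 0.09, and median polish gave -0.12. Aen and Xpc had an r of -0.79 and a rho of -0.63 (permutation p 0.00408, adjusted p 0.344), which was -0.17 with averaged probesets. Sesn2 and Ephx1 had an r of 0.78 and a rho of 0.76 (permutation p 0.00291, adjusted p 0.344), which was 0.36 with averaged probesets. The other 3 pairs had r of 0.75 to 0.76 with adjusted permutation p of 0.492 each. Averaging the probesets left 0.22 for Polk with Xpc, 0.44 for Zmat3 with Aen and 0.59 for Zmat3 with Ephx1. None of these 6 pairs passed the correction.

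The targets were also set against Cdkn1a, Mdm2, Xist and the marker lists, 330 relations chosen after the data were seen, and 1 passed. Sesn2 followed Cdkn1a, with an r of 0.92 and a rho of 0.97 over the 12 tumours (permutation p 7e-05, adjusted p 0.0231 over the 330 relations). Over these and the 435 pairs together the adjusted p was 0.0535. The r was 0.93 in KR and 0.93 in KHR tumours, 0.88 without the 2 tumours farthest from the median, and 0.89 to 0.94 with any 1 tumour left out. Averaged probesets gave 0.67 and median polish 0.76. The other targets did not share this relation as a group. The median r of the 30 genes with Cdkn1a was 0.12, with 17 of 30 above 0 (56.7%), beside 0.03 and 53.3% over all genes. Against Mdm2 the median was 0.10 with 18 of 30 above 0 (60.0%), beside -0.01 and 48.7% over all genes. Ccng1 was higher where the skeletal muscle markers were higher (r 0.89, rho 0.85, permutation p 0.00073, adjusted p 0.12), at 0.72 in KR and 0.94 in KHR tumours, and at 0.71 without the 2 tumours farthest from the median. Sesn2 was lower where these markers were higher (r -0.74, rho -0.66, permutation p 0.0102, adjusted p 0.516). With the muscle mean as a covariate, the change was 0.43 for Sesn2 (0.22 as reported) and 0.24 for Cdkn1a (0.08 as reported). The part of muscle content in the relation of Sesn2 with Cdkn1a was not tested.

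**Figure D5:**
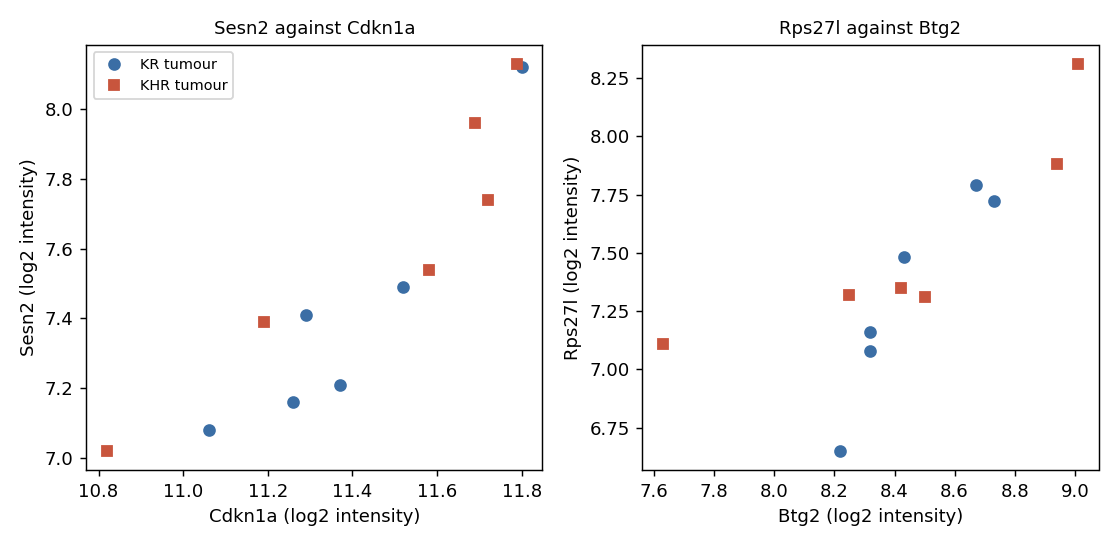
Log2 intensity of Sesn2 against Cdkn1a (left) and of Rps27l against Btg2 (right) in 6 KR tumours (circles) and 6 KHR tumours (squares), each value being the median of a gene's probesets. Both pairs rise together in both genotypes (r of 0.92 and 0.82 with the genotype means removed), and the second relation falls to 0.09 when probesets are averaged.

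The promoters of the targets were searched for the letters that p53 binds. p53 binds as a tetramer to a pair of half-sites, and the consensus half-site was searched in the RefSeq promoter windows of the assembly GRCm38.p6, from 250 bases before to 50 bases after each start. The half-site reads the same on both strands, so 1 search covers both. Of the 30 genes, 23 had a promoter entry, and 6 of these (26.1%) held a half-site, against 9.55% of 27025 genes with an entry. A full site, a pair of half-sites at most 13 bases apart, was found in 0 of the 23 and in 0.074% of all genes. Each half-site had to match the consensus in every letter, so full sites with a mismatched letter were not counted. The count of 0 therefore does not show that these promoters lack a p53 site. The stretches are shown because they are the matches among these targets, with the half-site in capitals and 10 bases on each side, on the strand of the gene:
Ccng1, chr11:40755452-40755481, minus strand: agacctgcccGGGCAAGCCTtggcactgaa
Rps27l, chr9:66946193-66946222, plus strand: ctttgggctcGGGCTTGCTTtccttcaggc
Rps27l, chr9:66946296-66946325, plus strand: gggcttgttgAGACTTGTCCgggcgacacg
Aen, chr7:78895927-78895956, plus strand: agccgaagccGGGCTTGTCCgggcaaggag
Ei24, chr9:36797325-36797354, minus strand: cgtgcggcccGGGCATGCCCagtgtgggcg
Polk, chr13:96519399-96519428, minus strand: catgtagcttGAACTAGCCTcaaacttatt
Sesn1, chr10:41887256-41887285, plus strand: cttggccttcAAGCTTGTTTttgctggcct

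The matches lay 10 bases before the start in Ei24, 10 bases after it in Aen, 107 and 210 bases before it in Rps27l, 173 in Sesn1, 185 in Ccng1 and 231 in Polk. The 6 genes with a half-site belong to all 4 functional classes. Their median change between the genotypes was -0.02 (from -0.13 to 0.30), and that of the 17 genes with an entry and no half-site was 0.01 (from -0.52 to 0.42). Tigar, the called target, was among the genes without a match in this window. A match is a description of the letters, and known p53 sites often lie in introns or farther upstream, outside these windows.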

How the data were processed

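The table the authors deposited holds log2 intensities of 269751 probesets on each array. Per the submitters' processing notes, Partek was among the tools used. The sources used here state no background correction, normalization or base of the logarithm, and the base was inferred from the range of the values. Gene symbols came from GEO's annotation of the platform, and were updated through the RefSeq table of GRCm38.p6. Of all probesets, 233753 had 1 symbol and were used, 5106 had several and 30892 had none. A gene's value was the median of its probesets, and dim genes were kept.

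Each change is KHR minus KR. All 23102 genes, and separately all 233753 probesets, were fitted in limma 3.58.1 with lmFit and eBayes (two-sided, R 4.3.3) on 12 arrays, with Benjamini-Hochberg adjustment and a threshold of 0.05. The fit was tested on simulated data with known changes. With 6 arrays in each genotype, their number limits the precision. Correlations used 100000 permutations of arrays within genotypes, for which the smallest p is 1e-05. Python 3.11.15 was used with numpy 2.4.6, pandas 2.3.3 and matplotlib 3.10.9.

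The target genes, their classes, the pathway genes and the marker lists were chosen with earlier results of these data known. Every target is named. Values by tumour are given for targets with an unadjusted p under 0.05 and for the most variable target of each class. Of the pathway genes, Cdkn1a, Mdm2 and those with an unadjusted p under 0.05 are named with values, and of the pairs the 6 with the largest correlation. Alternatives changed the summary of probesets, the scaling, filters, the variance model, covariates and the arrays included. The mean over brighter probesets, and median polish for the correlations, were chosen after seeing the data.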

Additional observations from a re-analysis of the deposited data

Results flagged for a closer look

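In 2 of 70 groups of 6 tumours tested, 1 tumour stood apart from the other 5 by Dixon's criterion, which chance alone meets in about 5% of such groups. Aen in KHR 4 was the lowest of its group at 5.71, where the next value was 6.28 and the highest 6.43. Ephx1 in KHR 3 was the highest of its group at 8.69, where the next value was 8.12 and the lowest 7.90. Without KHR 4, the change of Aen was 0.0079 in place of -0.10 (-0.24 as the mean over its probesets with all 12 tumours), and neither gene passed the limma test with any 1 tumour left out.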

How the results depend on the processing

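Of 30 targets tested by limma, 3 passed with the mean over probesets (6.25% of all genes) and with median polish (5.31%). Of the 28 that brighter probesets could read, 3 passed (9.05%). With the filter on dim genes 2 of 28 passed (8.72%), with that on genes with fewer than 3 probesets 2 of 30 (4.6%), and 0 of 30 with a trended robust variance (7 at an unadjusted p under 0.05) or the Xist covariate (9 unadjusted). The count higher in KHR was 2 with brighter probesets and 0 under quantile normalization, array medians subtracted, the trended variance and the Xist covariate. The count lower was 2 with mean and polish, and 1 with brighter probesets, both scalings and both filters. Leaving out each tumour gave 0 to 1 in all, 0 to 1 higher and 0 to 1 lower (5 to 7 unadjusted where 0 passed), and 523 to 1085 of all genes. All genes gave 863 calls of 23102 tested (3.74%), 1445 with the mean over probesets, 1405 of 15522 with brighter probesets and 555 (2.4%) with the Xist covariate. Whether the replicate numbers pair the tumours is not stated. Correlations of same-numbered deviations ran from -0.003 to 0.234, which cannot settle it, and the replicate block called 1 target and 925 genes.

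The class means moved by less than 1 SD under the alternatives run, the median correlation of all pairs lay between 0.03 and 0.14, and the count of pathway genes called stayed at 1. Some changes turned sign, among them those of Ak1 (-0.51 as reported), Rps27l (0.23) and Sesn2 (0.22). With the mean over probesets the change was -0.005 for Ccng1, -0.011 for Gdf15, -0.06 for Rps27l, -0.074 for Bbc3, -0.084 for Ercc5, -0.027 for Sesn2, -0.071 for Cdkn1a and 0.13 for Ak1. With median polish it was -0.042 for Ccng1, -0.012 for Btg2, -0.077 for Rps27l, -0.069 for Bbc3, 0.017 for Dram1, -0.053 for Ercc5, -0.034 for Sesn2, -0.027 for Cdkn1a and 0.27 for Ak1. With brighter probesets it was -0.039 for Ccng1, -0.069 for Rps27l, 0.071 for Dram1, -0.094 for Ercc5, -0.0059 for Cdkn1a and 0.35 for Ak1. For Bbc3 it was -0.54, read from the 1 brighter probeset of its 7. Quantile normalization gave -0.04 for Btg2, -0.046 for Ercc5 and -0.033 for Ddb2. Subtracted array medians gave -0.027 for Btg2, -0.027 for Bbc3, -0.022 for Ercc5, -0.017 for Ddb2 and -0.0019 for Mdm2. The Xist covariate gave -0.023 for Ccng1, 0.041 for Aen, 0.018 for Dram1, -0.063 for Ercc5 and -0.0047 for Ddb2. The muscle covariate gave -0.13 for Ccng1, -0.054 for Bbc3, -0.073 for Ercc5 and -0.054 for Mdm2. Leaving out each tumour gave -0.22 to 0.018 for Aen, -0.047 to 0.049 for Bbc3, -0.1 to 0.17 for Btg2, -0.044 to 0.16 for Ccng1, -0.089 to 0.094 for Ddb2, -0.14 to 0.015 for Dram1, -0.087 to 0.11 for Ercc5, -0.056 to 0.14 for Mdm2, -0.17 to 0.039 for Plk3 and -0.14 to 0.067 for Tnfrsf10b. The cause of these turns was not tested.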

Other observations

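Set against the marker lists over the 12 tumours, with the genotype means removed, the 30 targets had correlations on both sides of 0. Against the mean of 8 neutrophil markers the median r was -0.32, with 4 of 30 above 0 (13.3%), beside a median of -0.04 and 45.1% over all genes. Against 7 endothelial markers it was 0.20, with 28 of 30 above 0 (93.3%, all genes 51.1%), and against 10 macrophage markers 0.14, with 24 of 30 (80.0%, all genes 48.1%). Against 10 fibroblast markers it was 0.12, with 20 of 30 above 0 (66.7%, all genes 49.1%). For skeletal muscle the median was 0.01 (15 of 30 above 0), for squamous epithelium 0.03 (15), for T cells 0.04 (16) and for DNA replication 0.06 (17). None of these relations of a single target with a list passed the adjustment over 330 relations by the permutation test. The 30 targets share the same 12 arrays, so their relations with a list are not independent of each other, and no test was made of these counts.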
